A study of Mus musculus with 9 samples.

Results

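Olfactory receptor genes (symbols Olfr and a number) occupied 953 of the 27497 gene rows in the RNA sequencing table of mouse olfactory bulb. Kept for description were the 45 rows, 4.72% of the 953, with a value above 0 in at least 3 of the 9 libraries. Of all receptor rows, 732 (76.8%) were at 0 in every library. Bulbs came from adult mice of the C57/BL6 strain, of 6 to 8 weeks or older, with no transgene or other genotype named in the labels. There were 3 groups of 3 mice. Clean air mice had no odor, 30 min mice were taken after 30 min of a cocktail of odorants, and 120 min mice had 30 min of the cocktail and then 90 min of clean air. Polyadenylated RNA was sequenced from paired ends and deposited as RPKM, in which reads per gene are corrected for gene length and library size.

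Odorant receptors are G protein-coupled receptors that detect volatile molecules. Their genes are transcribed in sensory neurons of the olfactory epithelium in the nose, and each mature neuron expresses 1 receptor allele. All neurons with the same receptor send their axons to the same few glomeruli of the bulb, and some receptor mRNA is carried in those axons. In mice, class I receptor genes, named for their likeness to fish receptors, lie in a single array, and class II genes lie in many arrays. In bulk tissue, fewer cells or axons with a transcript and less RNA in each cannot be told apart.

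Receptor transcripts were scarce in every library. No kept row had a mean of 1 RPKM, the highest single value was 0.84 RPKM, and the means over the 9 libraries ran between 0.0189 and 0.489 RPKM with a median of 0.0689 RPKM. Only 9 of the 45 rows had a mean of at least 0.1 RPKM. Summed over all 953 rows, receptor RPKM was 8.28, 6.76 and 4.27 in clean air mice 1 to 3. It was 9.32, 7.93 and 6.62 in the 30 min mice, and 7.92, 6.21 and 4.06 in the 120 min mice. The groups overlapped. The 45 kept rows held between 45.5% and 78.5% of that sum. Omp, which encodes the olfactory marker protein of mature sensory neurons, was by itself 7.86 to 23.2 times the sum of all receptor rows of its library.

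Detection was mostly a matter of single rows in single libraries. Of the 221 receptor rows above 0 in any library, 135 were above 0 in exactly 1 library and 41 in exactly 2. A further 21 rows were above 0 in exactly 3 libraries, 10 in 4, 4 in 5, 3 in 6, 4 in 7, none in 8 and 3 in all 9. Over the whole table, 63.7% of rows were above 0 in at least 3 libraries. At the edge of the rule, the highest means among rows in exactly 3 libraries were those of Olfr437 (0.0956 RPKM), Olfr692 (0.08 RPKM) and Olfr544 (0.0689 RPKM). Among rows in exactly 2 libraries they were Olfr1362 (0.0956 RPKM), Olfr15 (0.0389 RPKM) and Olfr726 (0.0378 RPKM). Olfr1362 had 0.76 RPKM in 30 min mouse 1 and 0.1 RPKM in clean air mouse 2, so a row left out by the rule had 1 of the higher values of the family.

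**Figure D1:**
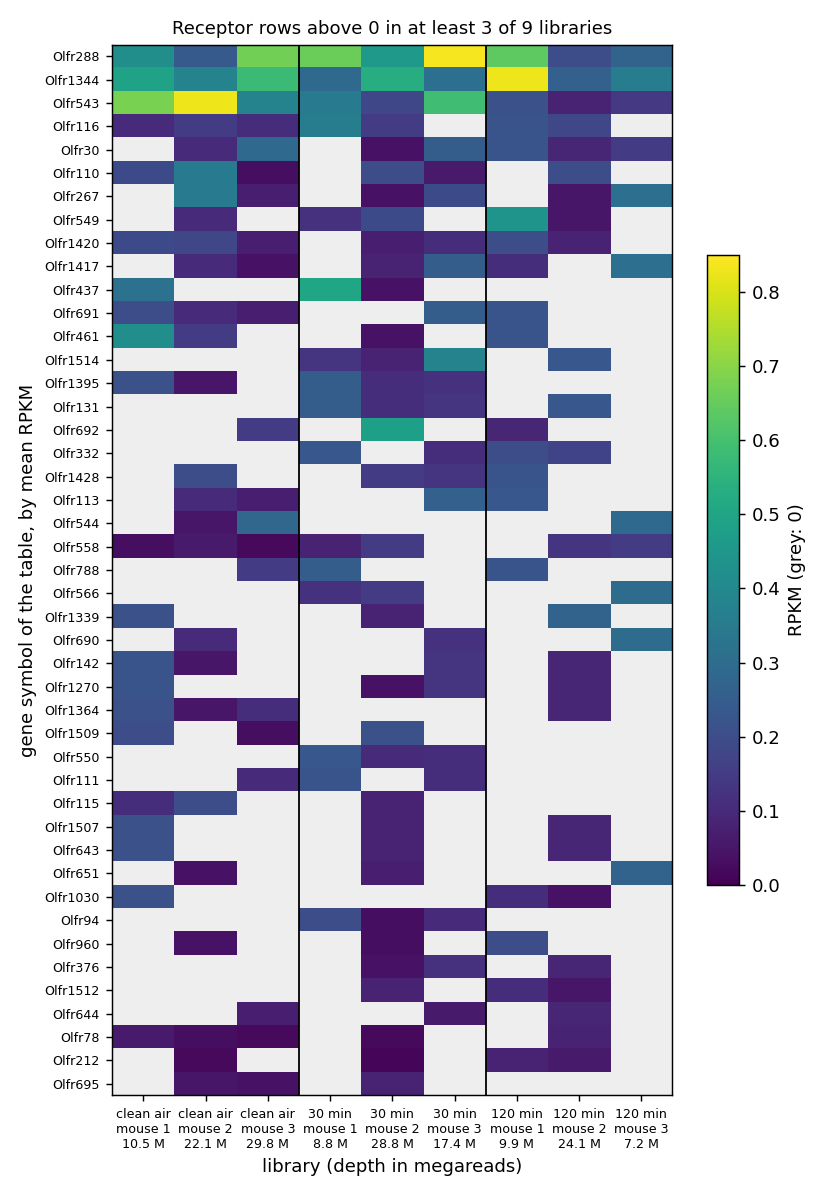
RPKM of the 45 kept receptor rows (rows, by mean) in the 9 libraries (columns, with recovered depth in megareads); grey cells are 0 and black lines part the groups. Above 0 in all 9 libraries were 3 rows, and most cells of the other rows are 0.

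The depth behind these values was estimated from short RNAs, whose RPKM come in steps worth 1 count each. It was 10.5, 22.1 and 29.8 megareads in clean air mice 1 to 3. It was 8.80, 28.8 and 17.4 megareads in the 30 min mice, and 9.86, 24.1 and 7.16 megareads in the 120 min mice. For a 1 kb transcript, 3 counts were then worth 0.101 to 0.419 RPKM, a floor that covers counting error only. In 31 of the 45 kept rows the coding length gave whole counts within 0.15 in every library. Those 31 rows had 4 to 59 counts over the 9 libraries together, with a median of 10, and 20 of them had 10 or fewer. Of 320 receptor values above 0 with a whole count, 83.4% were 1 or 2 counts and 53 values (16.6%) were 3 or more. Values of 2 counts (158) outnumbered values of 1 count (109), and 58.75% of the 320 were even. The sequencing was paired, and whether a value of 2 is both ends of 1 fragment was not tested. The limma p-values below compare group differences with a spread between mice. That spread was pooled over the 3 groups of 3 mice and moderated over all rows tested. The permutation p-values rest on 3 mice against 3.

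**Figure D2:**
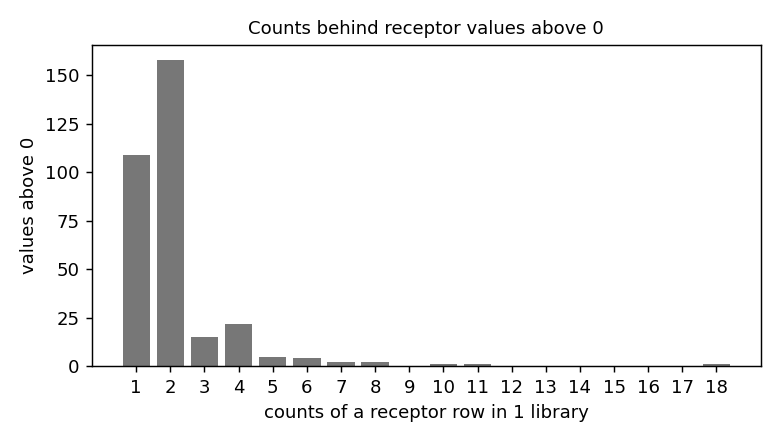
Number of receptor values above 0 (vertical axis) by the counts behind them in 1 library (horizontal axis), for 320 values that came out whole. Values of 1 or 2 counts make up 83.4%.

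The number of receptor rows above 0 was 38, 56 and 36 in clean air mice 1 to 3, 38, 86 and 38 in the 30 min mice, and 39, 65 and 17 in the 120 min mice. The group means were 43.3 ± 11.02 rows for clean air mice, 54 ± 27.7 rows for 30 min mice and 40.3 ± 24.03 rows for 120 min mice (SD, n = 3 each). The 86 rows were in a library of 28.8 megareads and the 17 rows in the shallowest, of 7.16 megareads. Clean air mouse 3, the deepest library at 29.8 megareads, had only 36 rows. Rows of at least 0.5 RPKM numbered 1, 1 and 2 in clean air mice, 3, 1 and 2 in 30 min mice, and 2, 0 and 0 in 120 min mice. That level is above the floor of a 1 kb transcript in every library, but not always for a shorter one. The row labelled Olfr1344 had 0.83 RPKM in 120 min mouse 1. On the coding length of 288 bases annotated for its identifier, this would be 2.08 counts. On the same length its value in 30 min mouse 1 would be 0.648 counts, which is not whole. The length behind its RPKM, and so its counts, are not known. Between 26.3% and 40.7% of the rows above 0 in a library were above 0 in no other library.

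**Figure D3:**
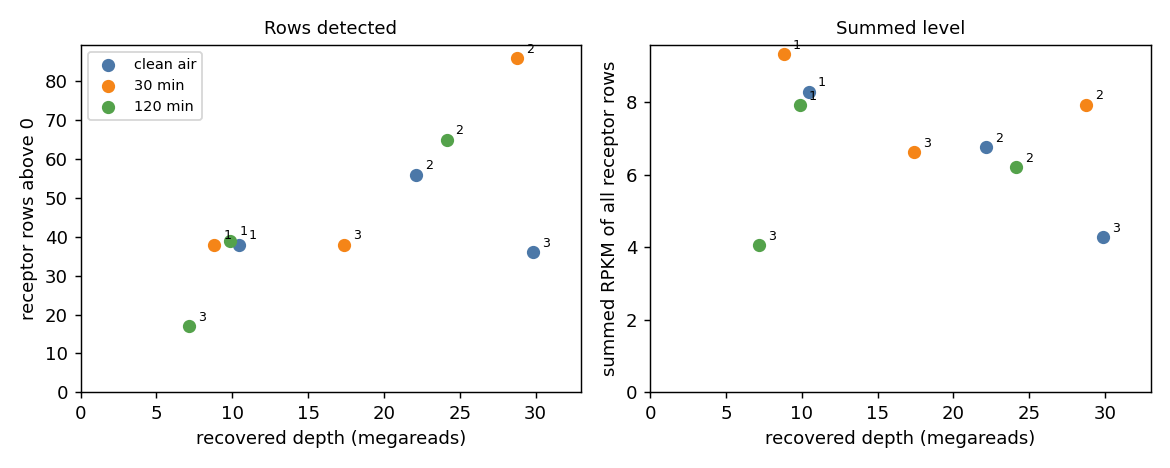
Receptor rows above 0 (left) and summed RPKM of all receptor rows (right) against recovered depth in megareads; each point is 1 mouse, with its number, colored by group. Rows above 0 range between 17 and 86, and the 30 min mouse of lowest depth has the highest sum, 9.32 RPKM.

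The 45 kept rows summed to 5.11, 4.07 and 3.35 RPKM in clean air mice 1 to 3, 4.24, 4.28 and 4.86 RPKM in 30 min mice, and 4.77, 3.08 and 2.85 RPKM in 120 min mice. The means were 4.18 ± 0.885 RPKM, 4.46 ± 0.347 RPKM and 3.57 ± 1.05 RPKM in that order (SD, n = 3 each), and the groups overlapped. Since these rows were chosen by detection in the same libraries, the sums are given without a test.

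Above 0 in all 9 libraries were 3 rows: Olfr288, the row labelled Olfr1344 and Olfr543. Together they held between 17.5% and 48.7% of the summed RPKM of the kept rows. Olfr543 is a class I receptor gene on chromosome 7. Its row (ENSMUSG00000044814) had 0.68, 0.83 and 0.38 RPKM in clean air mice 1 to 3, 0.35, 0.18 and 0.59 RPKM in 30 min mice, and 0.21, 0.08 and 0.14 RPKM in 120 min mice. Every 120 min mouse was below every clean air mouse, while the 30 min mice overlapped both. These values stood for 7, 18 and 11 counts in clean air, 3, 5 and 10 counts at 30 min, and 2, 2 and 1 counts at 120 min. The exact 95% Poisson interval in RPKM was 0.0251 to 0.750 in 120 min mouse 1, and 0.493 to 1.31 in clean air mouse 2. These intervals take the counts as independent. They would be too narrow if both ends of a fragment were counted, which was not tested. Summed by group, 120 min mice had 5 counts over 41.1 megareads and clean air mice had 36 counts over 62.5 megareads.

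In limma over all 17513 rows above 0 in at least 3 libraries, on log2(RPKM + 0.1), the 120 min minus clean air difference of Olfr543 was -1.57 ± 0.46 (SE), with an unadjusted p of 0.00617 and a Benjamini-Hochberg adjusted p of 0.400. The difference was not called. Without each mouse in turn it ranged between -1.84 and -1.36. An exact two-sided permutation test of the RPKM gave p = 0.1, the smallest that 3 mice against 3 allow, and 0.45 after adjustment over the 9 such tests run on the 3 rows. The 30 min minus clean air difference was -0.67 ± 0.46 (limma adjusted p = 0.905). None of the 35-base stretches of the Olfr543 coding sequence occurs in another annotated transcript, and no other annotated gene overlaps it. The 300 bases around its annotated start are shown because they belong to the most counted row with unshared sequence. They come from RefSeq on GRCm38.p6, minus strand, chr7:102477853-102478152, and hold none of the 3 motifs searched below.

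Olfr543 promoter: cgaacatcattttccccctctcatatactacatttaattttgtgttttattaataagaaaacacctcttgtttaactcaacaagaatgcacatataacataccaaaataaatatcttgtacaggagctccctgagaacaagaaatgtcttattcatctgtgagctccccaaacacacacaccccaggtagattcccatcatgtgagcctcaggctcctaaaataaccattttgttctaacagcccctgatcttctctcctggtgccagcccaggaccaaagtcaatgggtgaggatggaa

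The other rows above 0 in all libraries cannot be assigned to 1 receptor gene. Olfr288 (ENSMUSG00000075427, chromosome 15) had the highest mean of the family, 0.489 RPKM. It had 0.42, 0.24 and 0.67 RPKM in clean air mice 1 to 3, 0.66, 0.46 and 0.84 RPKM in 30 min mice, and 0.64, 0.2 and 0.27 RPKM in 120 min mice. The 3 groups overlapped, and the 30 min minus clean air difference was 0.52 ± 0.47 (limma adjusted p = 0.915). All of its coding 35-base stretches (100%) also lie in Gm44579, a gene annotated over the same exons. The row labelled Olfr1344 (ENSMUSG00000045929, chromosome 7) had 0.49, 0.38 and 0.58 RPKM in clean air mice, 0.29, 0.53 and 0.31 RPKM in 30 min mice, and 0.83, 0.26 and 0.36 RPKM in 120 min mice. Its groups overlapped too, and 1 mouse, 120 min mouse 1, stood highest. GENCODE M21 gives its identifier to Gm20715 and not to Olfr1344, and 74.1% of its 35-base stretches are shared with Smim17, a gene that is not a receptor. Neither row had whole counts on its coding length in every library.

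**Figure D4:**
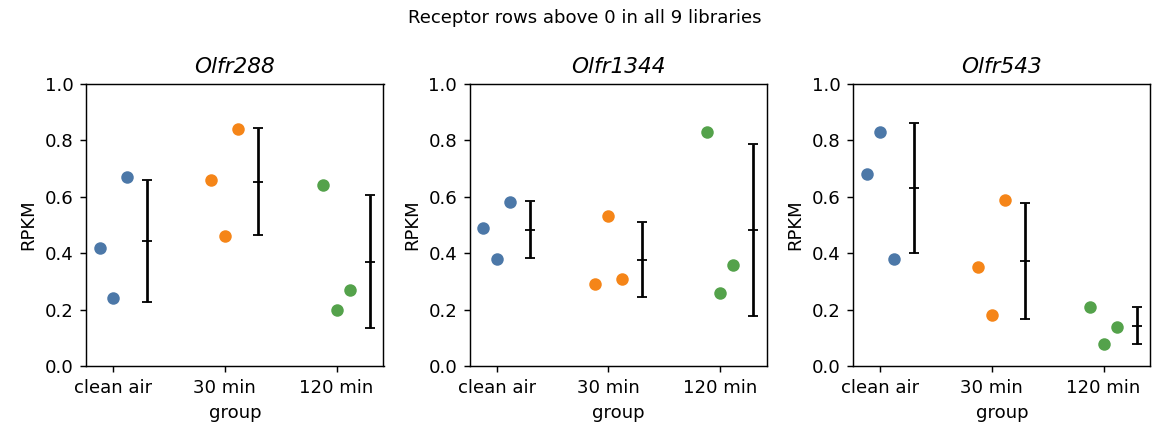
RPKM of the 3 receptor rows above 0 in all 9 libraries, by group in time order; points are mice, the horizontal dash is the mean and the bar is 1 SD (n = 3). In the Olfr543 panel the 120 min mice lie at 0.08 to 0.21 RPKM and the clean air mice at 0.38 to 0.83 RPKM.

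The next rows by mean lay between 0.0933 and 0.141 RPKM. Olfr116 (mean 0.141 RPKM) had 0.1, 0.15 and 0.11 RPKM in clean air mice 1 to 3, 0.36, 0.15 and 0 RPKM in 30 min mice, and 0.22, 0.18 and 0 RPKM in 120 min mice. Olfr30 (mean 0.127 RPKM) had 0, 0.1 and 0.29 RPKM in clean air mice, 0, 0.04 and 0.25 RPKM in 30 min mice, and 0.22, 0.09 and 0.15 RPKM in 120 min mice. Both were at 0 in 2 libraries, in different mice, and their groups overlapped. Olfr267, Olfr549, Olfr1420, Olfr1417, Olfr437 and Olfr691 followed, with means of 0.112, 0.1, 0.1, 0.0989, 0.0956 and 0.0933 RPKM and 3 to 7 libraries above 0. Olfr437 had 0.32 RPKM in clean air mouse 1, 0.5 RPKM in 30 min mouse 1 and 0.04 RPKM in 30 min mouse 2, and was at 0 in the other 6 libraries.

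Near-identical receptor copies limit some rows. Of the 45 kept rows, 20 shared no 35-base coding stretch with any other annotated transcript, 25 shared some and 17 shared at least 20%. Olfr110 and Olfr111, neighbours on chromosome 17 and both kept, shared 64.7% of these stretches with each other. Their coding sequences differed at 18 of 954 aligned bases, an identity of 98.1%. The stretch below is where they differ most, and capitals mark its 5 differing bases. It is bases 817 to 876 of Olfr110 and 874 to 933 of Olfr111. Bases are numbered along the longest ATG-to-stop frame of the GENCODE M21 transcripts, which for Olfr111 has 57 extra bases at its front.

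Olfr110: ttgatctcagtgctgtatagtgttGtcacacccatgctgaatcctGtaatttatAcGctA
Olfr111: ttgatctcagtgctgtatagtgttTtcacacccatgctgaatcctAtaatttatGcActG

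Olfr110 (mean 0.114 RPKM) had 0.19, 0.35 and 0.03 RPKM in clean air mice 1 to 3, 0, 0.2 and 0.06 RPKM in 30 min mice, and 0, 0.2 and 0 RPKM in 120 min mice. Olfr111 had 0.1 RPKM in clean air mouse 3, 0.22 and 0.11 RPKM in 30 min mice 1 and 3, and 0 elsewhere. Either row may hold reads of the other, since the sources used here do not say how reads with several matches were counted. Other kept rows with shared stretches were Olfr1417 (68.9% with Olfr1418) and Olfr544 (47.4% with Olfr545). Olfr643 was matched by symbol to a coding length of 141 bases, and 85.6% of its stretches lie in Olfr640. The 2 genes overlap in their annotated exons. On that length the Olfr643 values would be at most 0.246 counts, so this share may not describe the row.

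By position in GENCODE M21, the kept rows were spread unevenly over the receptor arrays. The class I array on chromosome 7, between Olfr543 and Olfr692, held 13 of the 45 kept rows (28.9%) and 92 of the matched receptor rows (9.79%). The array on chromosome 17 between Olfr90 and Olfr136 held 7 kept rows (15.6%) and 38 rows in all (4.04%); the 7 were Olfr116, Olfr110, Olfr111, Olfr113, Olfr115, Olfr131 and Olfr94. The largest array by rows, on chromosome 2 between Olfr987 and Olfr1274-ps, held 3 kept rows (6.67%) and 175 rows in all (18.6%). Of the rows above 0 in exactly 1 library, which were not kept, 15.2% lay in the chromosome 7 array, 5.30% in the chromosome 17 array and 12.9% in the chromosome 2 array. Counted library by library over all receptor rows above 0, the chromosome 7 array held 15.8% to 35.3%, above its 9.79% of rows in each of the 9 libraries. The same range was 0% to 18.4% for chromosome 17 and 0% to 10.9% for chromosome 2, below its 18.6% of rows in each library. These shares are a description of rows that share arrays and sequence.

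**Figure D5:**
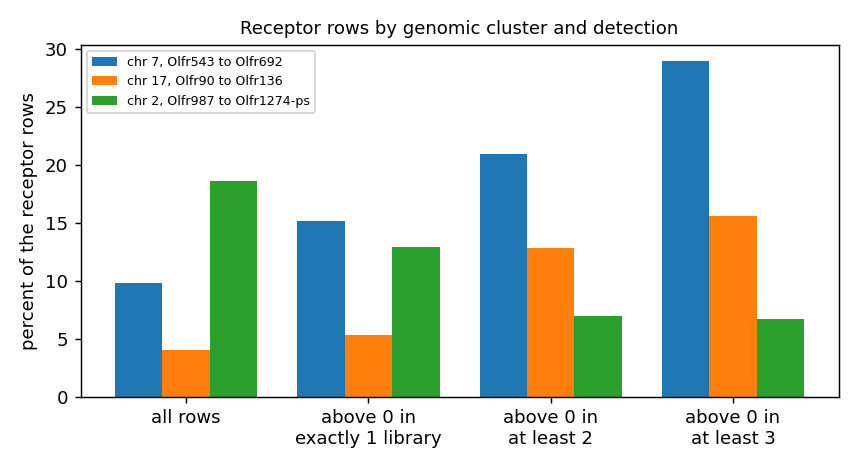
Percent of receptor rows (vertical axis) that lie in 3 genomic arrays, among all rows matched to the annotation and among rows above 0 in exactly 1, at least 2 or at least 3 libraries. The chromosome 7 array holds 28.9% of the rows kept and 9.79% of all rows, the chromosome 2 array 6.67% and 18.6%.

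Class I rows with a known role were among the kept ones. Olfr78, a receptor for short-chain fatty acids that is also expressed in oxygen-sensing cells of the carotid body, was above 0 in 5 libraries, with a mean of 0.0233 RPKM and a maximum of 0.08 RPKM. Its table row also carries the symbol Olfr560. Olfr558, the mouse counterpart of human OR51E1, was above 0 in 7 libraries with a mean of 0.0689 RPKM, and it shares exonic bases with Gm45688. Olfr544 had 0.05 and 0.28 RPKM in clean air mice 2 and 3, 0.29 RPKM in 120 min mouse 3 and 0 elsewhere. A panel of 13 much-studied receptors was also looked up, and 11 had a row. Olfr16 (MOR23), Olfr6 (M50), Olfr151 (M71), Olfr2 (I7), Olfr73 (mOR-EG) and Olfr160 (M72) were at 0 in all 9 libraries. Olfr1507 (MOR28) was kept, with 0.21 RPKM in clean air mouse 1, 0.08 RPKM in 30 min mouse 2 and 0.09 RPKM in 120 min mouse 2. Olfr17 (P2), Olfr15 and Olfr124 (SR1) were above 0 in 1, 2 and 1 libraries.

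No kept row was called for a change with odor at a limma adjusted p under 0.05. For 30 min minus clean air, 0 of 45 rows were called, beside 0.12% of all 17513 rows tested, and 5 of the 45 (11.1%) had an unadjusted p under 0.05, beside 5.5% of all rows. Those 5 rows were above 0 in 3 or 4 libraries, 3 of them the mice of their higher group, so the detection rule favoured such differences and the count supports nothing. For 120 min minus clean air, 0 of 45 were called, beside 0.0742% of all rows, and 1 (2.22%) had an unadjusted p under 0.05, beside 8.45%. For 120 min minus 30 min, 0 of 45 were called, beside 0.0514%, and 3 (6.67%) had an unadjusted p under 0.05, beside 3.82%. Of these 3 rows, Olfr550 and Olfr94 were above 0 in 30 min mice alone, and had to be lower at 120 min. The smallest adjusted p of a kept row was 0.817, 0.400 and 0.999 in these comparisons. The median log2 difference of the kept rows was 0.00, -0.08 and -0.04, and that of all rows was 0.07, 0.00 and -0.05. The comparisons share mice, so they are not independent. Below 1 RPKM the test found few changes in simulated 30 min minus clean air data over 17513 rows, each taken as 1 kb. Of such rows raised on the log2 scale, it called 37.5% of 16 raised by 2 and 7.14% of 14 raised by 1. Of rows lowered, it called 0% of 6 lowered by 1 and 11.1% of 9 lowered by 2. These shares rest on few rows, drawn from all levels below 1 RPKM. They also depend on the simulated spread, which was set by hand with 1 setting for all rows and not fitted to the receptor values. The kept receptor rows had a median of 0.0689 RPKM, and the share called at that level was not computed. In the fit of genes averaging 1 RPKM or more, 0 receptor rows were present to be tested, and 0.141%, 0.0861% and 0.0782% of its 12780 genes were called in the 3 comparisons in the same order.

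Groups did not overlap in 5 kept rows for 30 min against clean air, beside 10.5% of all rows. Olfr550, Olfr94, Olfr131 and Olfr1514 were higher in every 30 min mouse and Olfr1364 was lower in every 30 min mouse. The smallest unadjusted p was that of Olfr550 in the class I array, at 0.23, 0.1 and 0.11 RPKM in 30 min mice and 0 in all clean air and 120 min mice, with a 30 min minus clean air difference of 1.26 ± 0.35 (limma adjusted p = 0.817). Olfr94 had 0.2, 0.03 and 0.1 RPKM in 30 min mice and 0 in the other 6 libraries. Both rows were kept only through the 30 min mice, so they had to differ there. Olfr131 had 0.25, 0.11 and 0.13 RPKM in 30 min mice and 0 in clean air mice, a difference of 1.36 ± 0.50 (limma adjusted p = 0.897). The row labelled Olfr1514, whose identifier GENCODE M21 names Olfr221, had 0.13, 0.08 and 0.38 RPKM in 30 min mice and 0 in clean air mice, a difference of 1.44 ± 0.55 (limma adjusted p = 0.897). Olfr131 and the Olfr1514 row also had 0.23 RPKM in 120 min mouse 2. Log2 differences of rows listed at 0 depend on the pseudocount.

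For 120 min against clean air, 1 kept row had groups that did not overlap, Olfr543, beside 11.8% of all rows. For 120 min against 30 min there were 3, Olfr1395, Olfr550 and Olfr94, all lower at 120 min, beside 9.95% of all rows. The detection rule fixed that direction for Olfr550 and Olfr94. Olfr1395, above 0 in 5 libraries, was at 0 in the 120 min mice, against 0.25, 0.11 and 0.12 RPKM in 30 min mice, and had 0.21 and 0.05 RPKM in clean air mice 1 and 2. Olfr115 and Olfr1364 followed Olfr543 by unadjusted p in the 120 min minus clean air comparison. Olfr115 was at 0 in the 120 min mice, against 0.11, 0.2 and 0 RPKM in clean air mice, and its difference was -0.89 ± 0.47 (limma adjusted p = 0.653). Olfr1364 had 0, 0.09 and 0 RPKM in 120 min mice, against 0.21, 0.05 and 0.11 RPKM in clean air mice, a difference of -0.79 ± 0.42 (limma adjusted p = 0.658). Of the 45 rows, 28 were above 0 in at least 1 mouse of each group. Kept rows at 0 in all 3 mice of a group numbered 8 in clean air, 3 at 30 min and 8 at 120 min.

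Genes of the sensory neurons that make receptor transcripts were measured beside them. Of 27 listed sensory neuron genes, 24 had a row and 0 of 24 were called by limma in any of the 3 comparisons. At an unadjusted p under 0.05 there were 2 for 30 min minus clean air, 1 for 120 min minus clean air and 0 for 120 min minus 30 min. Omp averaged 97.1 ± 16.4 RPKM over clean air mice, 109 ± 1.57 RPKM over 30 min mice and 85.7 ± 21.4 RPKM over 120 min mice (SD, n = 3 each). Of the 24, 18 had a mean of at least 1 RPKM, among them the transduction genes Gng13 (120 RPKM), Adcy3 (12.8 RPKM) and Gnal (9.40 RPKM), and bulb cells can express listed genes too. Below 1 RPKM were 6, among them Cnga2 and Cnga4, subunits of the odor-gated ion channel (0.406 and 0.48 RPKM), and Rtp1 and Rtp2, which bring receptors to the cell surface (0.482 and 0.361 RPKM). All 4 activity genes checked (Fos, Arc, Egr1 and Npas4) were called higher at 30 min than in clean air. Fos, an immediate-early transcription factor, had 171, 131 and 164 RPKM in 30 min mice 1 to 3, against 4.73, 4.04 and 12.1 RPKM in clean air mice.

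The 30 min mouse 1 library stood apart for some of the listed genes of the olfactory epithelium, but not for all. Cyp2g1, Cyp2a5 and Sec14l3, markers of its supporting cells, were 3.78, 3.54 and 1.96 RPKM there and together at most 0.18 RPKM in any other library. Cyp1a2 (0.89 RPKM) and Reg3g (0.79 RPKM) were above 0 only there. Another was Sult1c1, whose symbol is on 2 rows, 1 at 0.64 RPKM in this library and 0 elsewhere, the other at 0 in all 9. The summed level of the 11 rows of supporting and gland cell genes, with 10 symbols, was 2.32 to 4.25 RPKM in clean air mice, 1.55 to 13.6 RPKM in 30 min mice and 1.88 to 3.3 RPKM in 120 min mice. Of the same list, Muc2 was 0.65 RPKM in this library and at most 0.55 RPKM elsewhere. Gstm2, the listed gene of highest mean, was lowest in this library, at 1.39 RPKM against 1.4 to 2.99 RPKM elsewhere. Aqp5 was at 0 there and above 0 only in clean air mice 2 and 3, at 0.9 and 0.67 RPKM. Obp1a, also listed, and the basal cell marker Krt5 were at 0 everywhere. The listed sensory neuron genes were mixed too. Rtp1 was highest in this library, at 1.19 RPKM against at most 0.55 RPKM elsewhere, as were Cnga2, Cnga4, Umodl1, Stoml3 and Adcy3. The others were not. Rtp2 was 0.58 RPKM here and 0.81 RPKM in clean air mouse 1, and Omp was 109 and 113 RPKM. The receptor sum (9.32 RPKM) and the estimated receptor counts per megaread (8.15) were also highest in this library. Without this mouse the 30 min mean of the receptor sum over all rows was 7.28 ± 0.926 RPKM (SD, n = 2), beside 7.96 ± 1.35 RPKM with it (SD, n = 3), and no kept row was called. The part of epithelial RNA in the receptor values was not tested.

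Other chemoreceptor families were read by the same rule. The V1r vomeronasal receptors had 127 rows, of which 1 (0.787%) was above 0 in at least 3 libraries, and the V2r receptors had 1 of 13. None of 14 trace amine-associated receptor rows, none of 32 Tas2r bitter taste receptor rows and not the single Gucy2d row reached 3 libraries. Other families had larger shares: 2 of 3 Tas1r taste receptor rows were above 0 in all 9 libraries, with means of 0.78 RPKM for Tas1r1 and 0.602 RPKM for Tas1r3, both above the mean of any Olfr row. The Ms4a family had 4 of 10 rows above 0 in at least 3 libraries, with Ms4a6d, Ms4a6c and Ms4a6b above 0 in all 9. The formyl peptide receptors (Fpr) had 1 of 4, which was Fpr1, and Fpr-rs2 was above 0 in 1 library. Which cells these transcripts came from was not tested. Gene families with no chemoreceptor role were chosen after the receptor values were seen. Of these, 1 of 35 Defb rows, 0 of 24 Krtap rows and 0 of 6 Ifna rows reached 3 libraries. The differences between families were not tested.

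The bases around the annotated starts of the kept rows, called promoters here, were searched for letters bound by factors of receptor genes. RefSeq gave 300 bases around the start (250 before, 50 after) for 36 of the 45. For some rows, as for Olfr1428, Olfr643 and Olfr644, the last 50 bases begin at the start codon. The annotated start is then the coding start, and the bases before it need not be a promoter. The shares below were not split by kind of start. The Ebf palindrome, spelled TCCC, any 2 bases and GGGA, searched like the others on both strands, was in 0 of 36, against 0.548% of other receptor promoters and 0.904% of all promoters. TAATTA, the core bound by homeodomain proteins such as Lhx2, was in 4 of 36 (11.1%), against 18.9% of other receptor promoters and 5.29% of all. TATAAA was in 4 of 36 (11.1%), against 42.2% and 13.6%. The motifs do not overlap one another in letters. Olfr692, a class I row at the edge of the rule (0.15 RPKM in clean air mouse 3, 0.48 RPKM in 30 min mouse 2, 0.09 RPKM in 120 min mouse 1), had TAATTA at 2 places and is shown for that (RefSeq, GRCm38.p6, plus strand, chr7:105368078-105368377), with the matches in capitals. A match is a description of letters, not a bound site.

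Olfr692 promoter: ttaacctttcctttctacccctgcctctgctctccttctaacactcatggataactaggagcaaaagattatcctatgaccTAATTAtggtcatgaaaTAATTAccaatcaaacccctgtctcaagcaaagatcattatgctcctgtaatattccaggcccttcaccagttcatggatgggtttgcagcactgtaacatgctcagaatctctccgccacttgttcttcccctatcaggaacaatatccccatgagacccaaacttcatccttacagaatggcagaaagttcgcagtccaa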

How the data were processed

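Trizol RNA was cleaned of DNA, enriched for poly(A) on oligo-dT beads and sequenced as paired ends, per the labels' protocols. The submitters' processing notes name Bowtie and the build mm9. How reads, strands and multiple matches were counted is not given in the sources. The deposited values are RPKM made by the authors, with 2 decimals, and were used as they stand. Receptor rows were found by symbol. The members and lists were chosen with earlier results of these data known. Named rows are the 12 of highest mean, those in all 9 libraries, the 3 of smallest unadjusted p in the 30 min and 120 min comparisons, the edges of the rule and a panel.

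limma 3.58.1 in R 4.3.3 (mean-variance trend, all 9 mice in 1 fit, two-sided, Benjamini-Hochberg over all rows, called at adjusted p under 0.05) was run on log2(RPKM + 0.1) for rows above 0 in at least 3 libraries and on log2(RPKM + 0.5) for genes averaging 1 RPKM or more. Both were tested on simulated data. Depth came from 477 RNAs of 45 to 200 nt, with lengths taken 34 nt shorter, which made 85.8% to 93.0% of multiples whole within 0.05, against 27.5% to 31.6% with full lengths; depths were 7.16 to 29.8 megareads. Estimated counts used the GENCODE M21 coding length less 34 nt. GENCODE M21 and RefSeq describe a later build than mm9, so they served for names, sequence and order; 37 of the kept rows matched by identifier and 8 by symbol. Arrays join receptor genes less than 1 Mb apart.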

Additional observations from a re-analysis of the deposited data

Results flagged for a closer look

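Olfr455 lies outside the rows searched by symbol, since the table labels its row with another name and only GENCODE M21 names it as a receptor. Its row reached 0.11 RPKM in 30 min mouse 2, above its highest clean air value of 0.07 RPKM in mouse 3, and was at 0 in the other 7 libraries. Another 34 rows are receptors by the annotation alone, and 30 of the 35 were at 0 everywhere. Olfr70 was above 0 in 4 of the 9 libraries, at most 0.15 RPKM, and would have met the detection rule.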

How the results depend on the processing

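No receptor row was called under any alternative run: pseudocounts 0.5 and 1, no filter, median centring, no mean-variance trend, a replicate block, and leaving out each mouse. A filter at a mean of 0.5 RPKM left no kept receptor row to test. Same-numbered mice of different groups correlated in their deviations at 0.0250 to 0.263, over 0.1 in 6 of 9 pairs (all pairs of mice 1 and of mice 2), and other-numbered mice at -0.209 to 0.0635, over 0.1 in 0 of 18. The data hint at shared deviations for mice 1 and 2. Depth went with these numbers, at 8.80 to 10.5 megareads in mice 1 and 22.1 to 28.8 megareads in mice 2. It was 7.16 to 29.8 megareads in mice 3. The part of depth in these correlations was not tested. The pairs of mice 3 were under 0.1, and 120 min mouse 3 correlated with clean air mouse 1 at 0.0635 and with clean air mouse 3 at 0.0281, so the numbers were not taken as a pairing. The numbers are those of the sample titles. The sample codes in the labels give mice 2 and 3 of clean air other numbers than mice 2 and 3 of the odor groups. By title number, the sum over all receptor rows differed by 1.04, 1.17 and 2.35 RPKM for 30 min minus clean air in mice 1 to 3. It differed by -0.36, -0.55 and -0.21 RPKM for 120 min minus clean air. These differences are not within a mouse and were not tested. With the replicate block, 23, 9 and 8 rows of the whole table were called for 30 min and 120 min minus clean air and for 120 min minus 30 min, against 21, 13 and 9 without it, and 0 receptor rows; Olfr543 had -1.57 at an adjusted p of 0.284.

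Kept rows numbered 86, 24, 10 and 3 when above 0 in at least 2, 4, 6 and 9 libraries, 24 and 6 with at least 0.1 and 0.2 RPKM in 3 libraries, and 30 to 41 without a mouse. Summed RPKM over all receptor rows was 6.44 in clean air, 7.96 at 30 min and 6.06 at 120 min. Without rows overlapping other genes the kept sum was 2.97, 3.22 and 2.51, and without the 5 highest rows 2.37, 2.79 and 2.28. Leaving out a mouse, the kept sum was 3.71 to 4.59 in clean air, 4.26 to 4.57 at 30 min and 2.96 to 3.92 at 120 min. At 0.5 RPKM the mean rows per library were 1.33, 2 and 0.667.

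Over all rows, without the trend 8 rows were called for 120 min minus clean air and 5 for 120 min minus 30 min. Without a mouse these were 0 to 15 and 4 to 11 in the fit of detected rows, the first being 0 without 120 min mouse 3, 1 without clean air mouse 2, 3 without clean air mouse 1, 4 without 120 min mouse 1 and 8 without 120 min mouse 2, and the second 4, 4 and 5 without 30 min mouse 1, 120 min mouse 1 and 120 min mouse 3. In the 1 RPKM fit 120 min minus clean air gave 0 to 11, against 11, dropping to 0 on leaving out 120 min mouse 3 or clean air mouse 2, to 3 for 120 min mice 1 and 2, and to 6 for clean air mouse 1. Signs turned in rows not called: Olfr288 for 120 min minus clean air, 0.048 without clean air mouse 3 and 0.025 without 120 min mouse 2 (range -0.63 to 0.048); Olfr1344 for 120 min minus clean air, 0.01 without clean air mouse 3, 0.18 without 120 min mouse 2 and 0.003 without 120 min mouse 3 (range -0.50 to 0.18); and Olfr1344 for 120 min minus 30 min, -0.19 without 120 min mouse 1 (range -0.19 to 0.49). The cause was not tested. Depth is a limit: 83.4% of the receptor values above 0 with a whole count were 1 or 2 counts.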
